A study of Mus musculus with 10 samples.

Results

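The 2 microarrays described here were those of the MMTR-N line, mouse embryonic stem cells (mESCs) that overexpress the N-terminal part of MMTR/Dmap1, at d3 of differentiation and at d0. They were 2 of the 10 arrays of a series with 1 array for each of 5 lines on each of 2 days. All lines derive from the mESC line CCE (G-CCE in the sample labels). The WT line is labelled as not transfected, MMTR KD carries an shRNA against MMTR/Dmap1 delivered by lentivirus, and MMTR-F, MMTR-N and MMTR-C carry plasmids with Flag-tagged MMTR/Dmap1 at full length or as its N- or C-terminal part. The d0 cells grew with LIF, the cytokine that keeps mESCs undifferentiated, and the d3 cells had been without LIF for 3 days. Per the methods, they were started as hanging drops and had been moved as aggregates to culture dishes the day before. The methods speak of clones picked for EGFP among the transduced cells, and the study calls its lines clones, but whether the MMTR-N arrays came from 1 clone was not stated. The series text speaks of duplicated profiles, but each line and day had 1 column of values, so no difference between the 2 MMTR-N arrays has a replicate error or a test of its own.

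Removal of LIF lets mESCs leave the naive pluripotent state, which is held by transcription factors such as Klf4, Esrrb and Tbx3, and enter a primed state that resembles the epiblast after implantation, with Fgf5, Otx2 and Dnmt3b as its usual markers. MMTR/Dmap1 is a subunit of the Tip60-p400 complex, which acetylates histones and exchanges histone variants, and it also binds the DNA methyltransferase Dnmt1. Besides these genes, the results below turn on several stress and metabolic programs. Hypoxia-inducible factors drive glycolytic enzymes, p53 drives cell cycle inhibitors and death genes, and Atf4 drives genes of amino acid supply and of the response to unfolded protein.

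Values are log2 bead signals, quantile normalized over the 17775 of 45281 probes called present (detection p-value up to 0.05) on 5 or more arrays. Of the kept probes, 1095 were detected on exactly 5 arrays, and 963 probes detected on exactly 4 were left out. A gene is represented by its brightest kept probe, which gave 9401 genes, 9370 of them detected on at least 1 MMTR-N array. Median raw signals were 240.2 at d0 and 346 at d3 in MMTR-N, with 18837 and 17492 detected probes. In the other lines the medians lay between 218 and 244 at d0 and between 337 and 347 at d3, so raw signal moved with the day in all 5 lines, and day and array run cannot be told apart. The Dmap1 probe, the check of the labels, read 10.52 at d0 and 10.34 at d3 in the library labelled MMTR-N, against 12 on both days in MMTR-C, 10.78 and 10.38 in MMTR KD, 10.59 and 10.42 in WT, and 10.48 and 10.18 in MMTR-F. It was thus not raised in the library labelled MMTR-N. Which part of the transcript the probe reads is not given in the sources used here, so a fragment outside it would not be seen. The probe was also not higher in the library labelled MMTR-F, which carries the full-length construct, nor lower at d0 in the library labelled MMTR KD. It thus bears out none of these 3 labels, and the line names below are those of the labels. For the MMTR-F, MMTR-N and MMTR-C lines the study reports expression of the constructs by immunoblot, a measure of protein that these arrays do not hold. Stem cell markers were high on both MMTR-N arrays, with Pou5f1 at 13.22 and 12.56, Nanog at 13.53 and 12.82 and Sall4 at 13.30 and 13.12. Of the fibroblast, macrophage and endothelial markers, 3 of 12, 1 of 10 and 2 of 12 passed the filter. In bulk RNA, fewer cells of a type and less RNA per cell cannot be told apart.

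Between d0 and d3 of MMTR-N, 1588 probes (8.93%) were higher by a log2 difference of 0.5 or more and 1503 (8.46%) were lower. A difference of at least 1 was met by 398 higher and 310 lower probes, and one of at least 2 by 43 and 40. The counts depended on the processing, with 3700 higher and 3739 lower after normexp background correction, and 3589 and 1575 without normalization between arrays, where the share of higher among the called probes was 69.5% in place of 51.4%. The other lines gave 1674 higher and 1557 lower probes in MMTR-C (9.42% and 8.76%), 1655 and 1555 in WT (9.31% and 8.75%), 1522 and 1424 in MMTR KD (8.56% and 8.01%) and 1218 and 1155 in MMTR-F (6.85% and 6.5%). Per gene, 1074 were higher and 893 lower in MMTR-N, which is 11.4% and 9.5% of the 9401 kept genes. Of the 9370 measured they made 11.5% and 9.53%, the shares to set beside the list counts below. MMTR-N therefore lay inside the range of the other lines in the number of probes that differed between the days. Most of these probes moved the same way elsewhere. The day was tested over the other 4 lines, with 8 arrays that include none of MMTR-N, by limma with line and day as terms, in which 3818 probes rose (21.5%) and 3857 fell (21.7%) at the adjusted threshold of 0.05. Of the probes higher in MMTR-N, 1350 were among those that rose in the other lines, 85% of the MMTR-N set and 35.4% of the other. Of the lower probes, 1319 were among those that fell, 87.8% and 34.2%. Only 5 probes higher in MMTR-N fell in the other lines, and 4 lower probes rose.

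The day change of MMTR-N was then set against the mean day change of the other 4 lines in a limma model with a term for MMTR-N by day, in which the spread of the other lines' day changes stands for that of MMTR-N. No probe passed an adjusted p of 0.05 (0%), while 1125 (6.33%) had an unadjusted p under 0.05. The comparison with the other lines is therefore given as values below, with the term's estimate, its SE and its adjusted p for the genes that stood furthest out. Counted per probe, the MMTR-N change lay at least 0.5 above the range of the other 4 lines for 112 probes and at least 0.5 below it for 62. The same count, made for each other line in turn, gave 59 above and 53 below in MMTR KD, 48 and 27 in MMTR-F, 37 and 76 in WT, and 22 and 77 in MMTR-C. MMTR-N thus had more probes above the range than any other line. Per gene, 87 lay above (0.925%) and 42 below (0.447%).

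**Figure D1:**
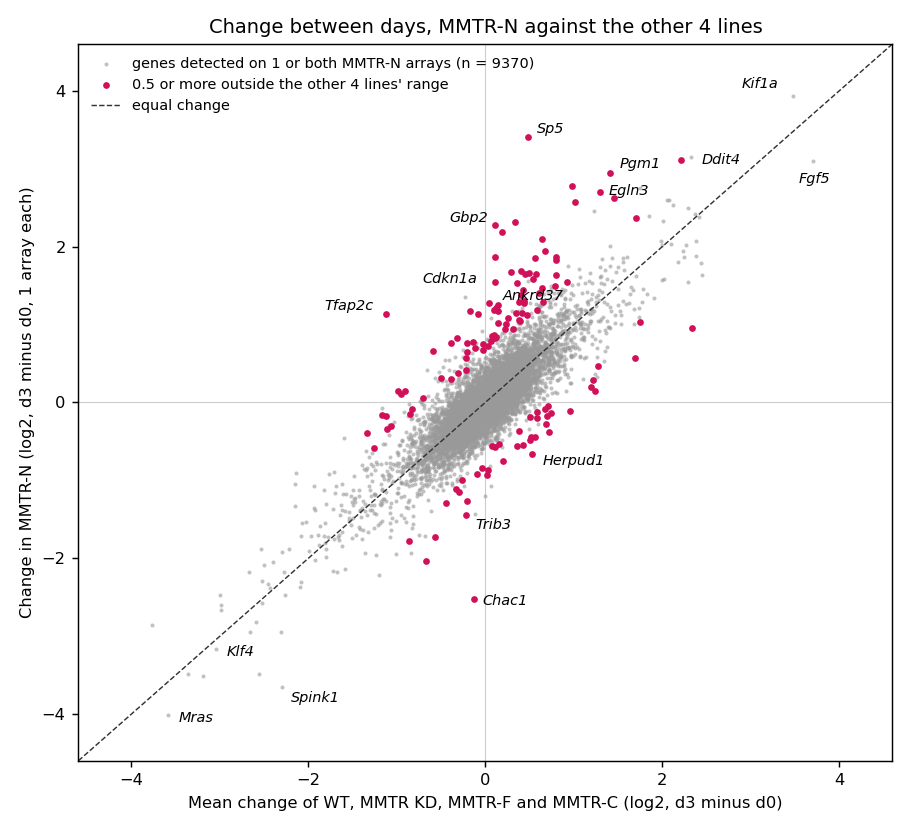
Change between d0 and d3 (log2) of each of 9370 genes in MMTR-N on the y axis against the mean change of the other 4 lines on the x axis, with genes at least 0.5 outside the other lines' range in red. Most points follow the dashed line of equal change; Sp5, Pgm1, Egln3 and Gbp2 stand above it, and Chac1, Trib3 and Herpud1 below it.

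Among genes detected on both MMTR-N arrays, the motor protein gene Kif1a had the largest increase, from 9.29 to 13.23, which is 3.94 on the log2 scale or 15.3-fold. The other lines gave 2.91 to 4.09, so MMTR-N was among them. The same was true of the tight junction gene Cldn6 (2.59), the muscle LIM gene Pdlim3 (2.53), the potassium channel gene Kcnk1 (2.50) and the chromatin reader Zmynd8 (2.42). In 10 of the 15 largest increases, however, the change in MMTR-N was larger than in each other line. Sp5, a transcription factor and direct Wnt target, went from 8.50 to 11.91 (3.41, or 10.6-fold), against 2.29 in MMTR KD, 1.64 in MMTR-F, -1.38 in WT and -0.65 in MMTR-C. Its d0 level was the lowest of the 5 lines, and at d3 MMTR KD read higher (12.39). The stress gene Ddit4, an inhibitor of mTORC1, was 3.15 higher at d3 (1.53 to 2.85 elsewhere). The iron exporter Slc40a1 was 3.11 higher (1.78 to 2.47). Its d0 level (8.66) was also the lowest of the 5 lines, and at d3 it read 11.77, against 11.73 in MMTR KD. Pgm1, a phosphoglucomutase that links glycogen to glycolysis, went from 11.15 to 14.09 (2.94), against 1.30 to 1.57. The Pgm1 level stood -0.76 from the mean of the other lines at d0 and 0.77 from it at d3. The interferon-induced factor Irf1 was 2.75 higher (1.01 to 2.26), although its 4 probes ranged from 0.46 to 2.75. The hypoxia-induced prolyl hydroxylase Egln3 followed with 2.71, then the retrotransposon-derived gene Rtl8a (2.62), App, the precursor of amyloid beta (2.60), the actin bundler Espn (2.57) and the receptor Epha1 (2.39). The lowest of 3 probes read 0.37 for App, 0.80 for Epha1 and 1.13 for Zmynd8, and the other Kif1a probe read 1.72.

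All but 1 of the 15 largest decreases had the same direction in each of the other lines. Spink1, a secreted protease inhibitor, went from 11.99 to 8.33 (-3.65), while the other lines ranged from -4.12 in WT to -0.35 in MMTR KD. The naive state factor Gbx2 went from 13.04 to 9.52 (-3.51), the laminin chain Lama1 from 12.16 to 8.67 (-3.49) and Klf4 from 11.85 to 8.69 (-3.16). For Gbx2 and Klf4 the other lines held values on both sides of MMTR-N, from -3.73 to -2.69 and from -3.27 to -2.51, and for Lama1 MMTR-N was the lowest, with -3.03 to -1.50 elsewhere. Further down came the myosin light chain Mylpf (-2.95), Tbx3 (-2.94), the lysosomal protein Laptm5 (-2.86), the junction protein Jam2 (-2.82), the bHLH factor Msc (-2.66), the LIF feedback inhibitor Socs3 (-2.61), the ligand Bmp4 (-2.58), Chac1 (-2.53), the collagen enhancer Pcolce2 (-2.48), the galectin Lgals3 (-2.47) and Klf5 (-2.39). Other probes of some of these genes gave smaller decreases, down to -0.62 for Tbx3, -0.98 for Jam2 and -1.91 for Klf4. Chac1 alone of these 15 lay more than 0.5 outside the other lines' range. Genes detected on only 1 MMTR-N array have a bound. At d3 the primed marker Fgf5 was at least 8.39-fold higher, the ligand gene Wnt8a at least 6.29-fold and Fgf8 at least 4.94-fold. On the other side the small GTPase Mras was at least 15.9-fold lower, the membrane protein Emp1 at least 10.3-fold and the water channel Aqp3 at least 3.81-fold.

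**Figure D2:**
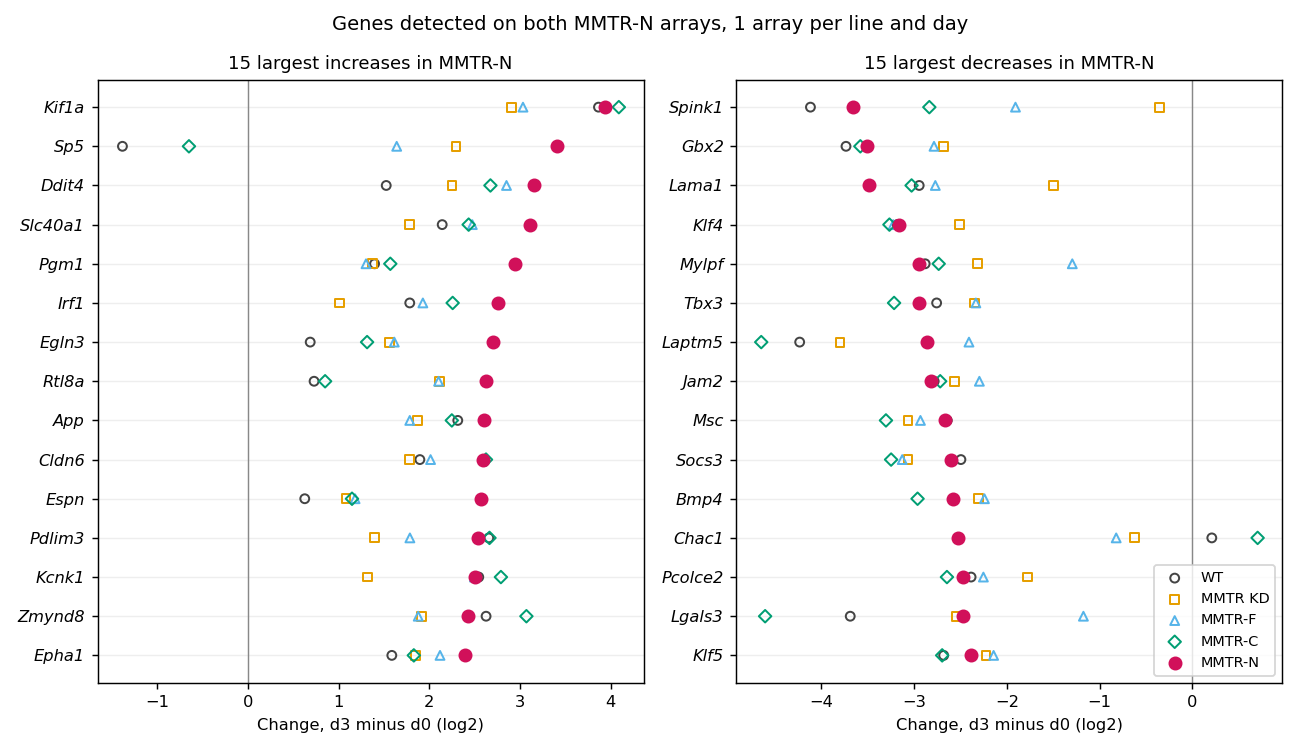
Change between d0 and d3 (log2, x axis) of the 15 genes with the largest increase and the 15 with the largest decrease in MMTR-N, with MMTR-N as filled circles and the other 4 lines as open symbols, 1 array per line and day. MMTR-N stands apart from all other lines in Pgm1, Egln3 and Espn on the left and in Chac1 on the right.

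Naive pluripotency genes were lower at d3 in MMTR-N, but by less than in WT or MMTR-C. Of 22 listed genes 18 passed the filter, and 15 of the 18 were lower by 0.5 or more, 0 higher and 3 neither, against 9.53% of all genes lower and 11.5% higher. Their median change was -1.72 in MMTR-N. It was -2.82 in MMTR-C, -2.72 in WT, -1.90 in MMTR KD and -1.50 in MMTR-F, with 0.0044 over all genes in MMTR-N. Klf2 went from 14.01 to 12.97 in MMTR-N (-1.04), against -3.0 in WT, -3.09 in MMTR-C and -0.79 in MMTR-F. The nuclear receptor Esrrb went from 15.03 to 13.15 (-1.88), against -3.07, -3.38 and -1.47 in the same lines. Zfp42 (Rex1) went from 13.15 to 12.02 (-1.12), against -2.36, -2.23 and -0.79. Tbx3, Klf4, Gbx2 and Jam2 did not share this order, with MMTR-N values close to those of WT. All 18 genes fell over the other 4 lines in the limma test. Dppa3 was 0.39 higher at d3 in MMTR-N and between -1.13 and 0.07 elsewhere, and Dppa5a and Fgf4 differed by -0.32 and -0.10. No naive gene's MMTR-N by day term passed the adjusted threshold.

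Genes of the core network differed less. Of 13 listed, 12 were measured, and 8 were lower (66.7%, against 9.53% of all genes) and 0 higher. Their median was -0.61, while the other lines ranged from -0.60 in MMTR KD to -0.04 in MMTR-F. Pou5f1 (Oct4) had -0.66 in MMTR-N, the lowest of the 5 lines (-0.56 to 0.12 elsewhere), and the RNA-binding protein gene Lin28a had -0.87 (-0.52 to -0.40), though its 3 probes ranged from -0.87 to 0.50. The zinc finger factor Sall4 had -0.18 in MMTR-N and was between 0.33 and 0.83 in the other lines. Its other kept probe read -1.19. Sox2 (-0.55) and Tdgf1 (-0.79), a co-receptor for Nodal, were nearer 0 in MMTR-N than in any other line (-1.13 to -0.70 and -1.72 to -0.96), although the other Sox2 probe read -1.21. Among 12 measured genes of the LIF and Stat3 response, 5 were lower and 2 higher, with a median of -0.41, which was nearer 0 than in the other lines (-0.69 to -0.52). Socs3, Pim3 and Stat3 had -2.61, -1.98 and -1.70. The immediate early gene Ier3 went from 9.09 to 10.30 (1.21), while the other lines gave -0.16 to 0.25, and its term was 1.09 (SE 0.18, adjusted p = 0.684 by limma).

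Most primed epiblast genes were higher at d3 in MMTR-N, as in the other lines. Of 21 listed, 14 were measured, with 11 higher, 1 lower and a median of 1.59, against 1.1 to 1.36 in the other lines. With genes detected on 1 array set at their bound the median was 1.47. Gene by gene, the MMTR-N change minus the mean of the other lines had a median of -0.08. It was above every other line in 3 genes and below in 4. The membrane carbonic anhydrase Car4 gave 2.39, the POU factor Pou3f1 2.07, Otx2 1.88 and Dnmt3b 1.57. For Otx2 and Dnmt3b the other lines gave 1.90 to 3.40 and 1.42 to 2.68, so MMTR-N was low in or below their range. Fgf5 reached 11.25 at d3, against 11.21 in MMTR-F and 12.10 to 12.43 in the other lines. Etv4, an ETS factor downstream of FGF, was the 1 lower member (-1.31).

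Nodal, which acts through activin receptors and Smad2 and Smad3, and its inhibitor Lefty1 were higher at d3 in MMTR-N and not in WT. Nodal went from 11.35 to 12.59 (1.24), against 1.1 in MMTR-F, 0.74 in MMTR KD, -0.08 in MMTR-C and -1.29 in WT, with 0.56 from its other kept probe. Lefty1 went from 11.84 to 13.20 (1.35), against 1.64, 0.47, -0.77 and -2.24. At d0 the MMTR-N values of both genes lay inside the other lines' range. Lefty2, the second inhibitor, had -0.65 in MMTR-N and between -2.20 and -0.16 elsewhere. Of the receptor and signal genes, Acvr2b had 0.92 and Smad3 1.15 (0.16 to 0.90 elsewhere), while the type I receptor Acvr1b had -0.37 and Smad2 -0.19. Among the ligands, Gdf1 had 1.15 and Gdf3 -1.70. Over the whole list of 18, 15 were measured, with 8 higher, 4 lower and a median of 0.56 (0.02 to 0.31 in the other lines). The Nodal and Lefty1 terms were 1.12 (SE 0.78, adjusted p = 0.86 by limma) and 1.58 (SE 1.21, adjusted p = 0.877), with 95% intervals that include 0.

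Wnt8a and the Wnt target Sp5 gave a similar split of the lines. The ligand gene Wnt8a, which is induced in early mesoderm and stood in none of the lists, was not detected on the MMTR-N array at d0 (8.06) and read 10.84 at d3. The measured difference of 2.77 compares with 1.60 in MMTR KD, 1.53 in MMTR-F, 0.20 in WT and 0.57 in MMTR-C. Sp5, with the values given above, had the same order of the lines, and in WT and MMTR-C it was lower at d3. Axin2, a feedback inhibitor of the pathway, differed less between lines, with 1.18 in MMTR-N and 0.46 to 1.72 elsewhere. Of 15 listed Wnt targets 8 were measured, 5 higher and 0 lower, with a median of 0.57 (0.36 to 0.62). Among them Fzd7 had 1.21, below every other line (1.23 to 2.10). Fgf8, which also marks early mesoderm, read 8.04 without detection at d0 and 10.49 at d3, a value matched only by MMTR KD at d3 (10.49). The mesoderm list was otherwise thinly measured, with 3 of 18 genes. Of these Mixl1 had 0.27 and Evx1 0.49, against 1.90 for Evx1 in MMTR KD. In the FGF and ERK feedback list, the phosphatases Dusp4 and Dusp6 stood below the other lines' range. Dusp4 was already at 11.65 at d0 in MMTR-N, against 9.35 to 10.32, and had 0.96 (1.56 to 3.40 elsewhere). Dusp6 had -0.28 (0.24 to 1.11).

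**Figure D3:**
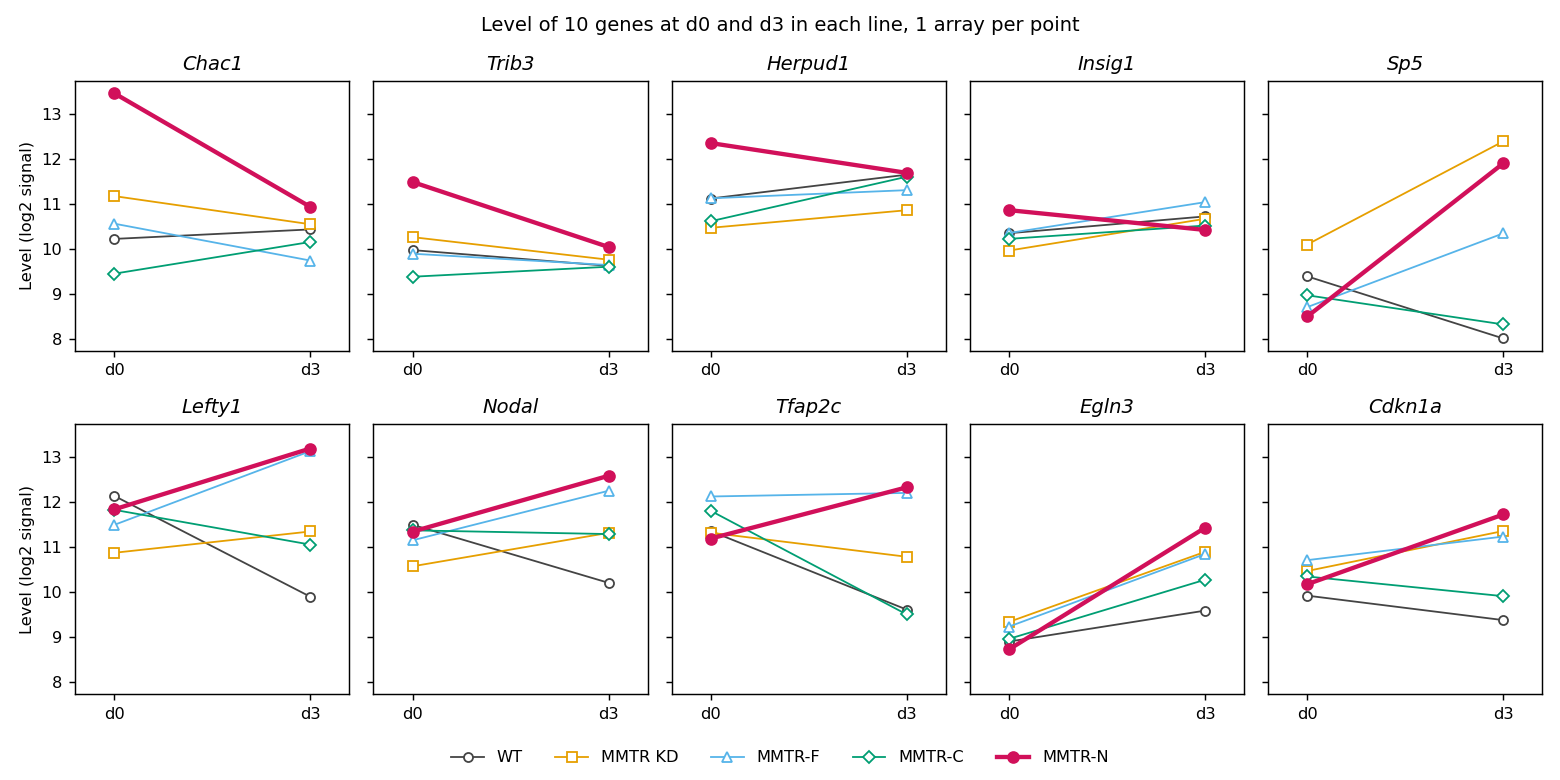
Level (log2 signal, y axis) of 10 genes at d0 and d3 in MMTR-N (thick line) and in the other 4 lines, 1 array per point. Chac1, Trib3 and Herpud1 start above all other lines at d0, whereas Sp5, Lefty1, Egln3 and Cdkn1a start within or close to their range and end high.

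Enzymes of glycolysis and genes induced by hypoxia were higher at d3 in MMTR-N more often, and by more, than in the other lines. Of 28 listed genes 19 were measured, and 14 were higher and 0 lower, with a median of 1.01, against 0.65 in MMTR KD, 0.51 in MMTR-C, 0.46 in MMTR-F and 0.25 in WT. The other lines had 5 to 11 higher members. For 14 of the 19 genes MMTR-N exceeded every other line, where 22.3% of all genes did. The list was chosen with earlier results of these data known, so this count is no independent evidence. Egln3, which hydroxylates hypoxia-inducible factors, went from 8.73 to 11.43 (2.71, or 6.52-fold), against 0.69 to 1.61. P4ha2, a collagen prolyl hydroxylase, went from 8.96 to 10.90 (1.94), against 0.31 to 1.12. Ankrd37, an ankyrin repeat gene induced by hypoxia, went from 9.48 to 10.67 (1.19), while the other lines stayed between 0.01 and 0.15. At d0 the 3 genes stood inside or below the other lines' range, and at d3 each stood above it. The promoters of these 3 genes are printed here because hypoxia-inducible factors bind the core letters ACGTG or GCGTG. They are RefSeq windows of GRCm38.p6, from 250 bases before to 50 after the gene's start, on the gene's strand, and capitals mark ACGTG or GCGTG on either strand, with overlapping matches run together.

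Egln3, chr12:54203825-54204124, minus strand: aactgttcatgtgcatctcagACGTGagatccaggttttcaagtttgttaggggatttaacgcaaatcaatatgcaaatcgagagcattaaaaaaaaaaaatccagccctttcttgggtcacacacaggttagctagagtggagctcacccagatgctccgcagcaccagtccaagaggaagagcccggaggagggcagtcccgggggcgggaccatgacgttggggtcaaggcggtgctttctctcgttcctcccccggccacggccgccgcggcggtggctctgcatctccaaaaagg
P4ha2, chr11:54100674-54100973, plus strand: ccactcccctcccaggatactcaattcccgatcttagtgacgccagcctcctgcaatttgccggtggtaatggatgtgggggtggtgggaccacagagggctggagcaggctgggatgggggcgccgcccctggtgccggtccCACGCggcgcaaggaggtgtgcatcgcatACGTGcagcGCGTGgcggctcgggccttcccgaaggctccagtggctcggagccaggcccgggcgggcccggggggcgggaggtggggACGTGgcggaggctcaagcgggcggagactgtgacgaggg
Ankrd37, chr8:45999801-46000100, minus strand: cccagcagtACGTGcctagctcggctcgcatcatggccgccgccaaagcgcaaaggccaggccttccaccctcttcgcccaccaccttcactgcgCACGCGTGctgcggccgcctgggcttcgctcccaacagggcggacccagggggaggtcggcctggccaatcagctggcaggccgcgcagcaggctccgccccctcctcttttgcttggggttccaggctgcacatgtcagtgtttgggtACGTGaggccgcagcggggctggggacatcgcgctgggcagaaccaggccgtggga

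Egln3 held 1 match, at position -229 from the start, and P4ha2 and Ankrd37 held 4 each. Of the 19 measured list members 17 had a window, and 16 of these (94.1%) held a match in at least 1 window. Of all 27025 genes with a window, 46.7% did, and of all 32851 windows 43.8%, so these letters are common. In the enzymes themselves, Aldoa (aldolase) went from 12.70 to 14.15 (1.45), against 0.29 to 0.97. Tpi1 had 1.44, with 0.65 to 1.04 elsewhere but -0.07 at the lowest of its 3 probes. Its MMTR-N level stood -0.46 from the mean of the other lines at d0 and 0.07 from it at d3. Pfkl, a phosphofructokinase, had 1.35 (0.63 to 1.09) and Pgk1 0.79 (-0.05 to 0.56). The glucose transporter Slc2a1 had 1.37, only a little above WT (1.29), and its level stood -0.50 from the mean of the other lines at d0 and 0.02 at d3. The pyruvate dehydrogenase kinase gene Pdk1 had 1.01, which MMTR KD matched (1.01). Ldha (0.67), Pkm (0.57) and Pfkm (1.19) lay within the other lines' range. Ndrg1, a stress gene of the same list, had 1.25 in MMTR-N and -0.62 to 0.66 elsewhere. Pfkp was the 1 member with a decrease in each of the 5 lines, the smallest of them in MMTR-N (-0.25, against -1.54 to -0.54).

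The MMTR-N by day term was largest relative to its error for Pgm1 (1.53, SE 0.15, 95% interval 1.18 to 1.88, adjusted p = 0.256 by limma). Ankrd37 came next (1.1, SE 0.13, 95% interval 0.80 to 1.41, adjusted p = 0.48 by limma). Those of Egln3 and P4ha2 were 1.41 (SE 0.33) and 1.27 (SE 0.28), both at an adjusted p of 0.684 by limma. None passed the threshold. Some genes outside the list are also known hypoxia targets. They were named after their values were seen, so they are no independent evidence, and other targets outside the list were not counted. Carbonic anhydrase Car12 had 1.54 (0.13 to 0.60 elsewhere), Fam162a 1.82 (0.29 to 1.01), the lysyl hydroxylase Plod2 1.29 (-0.01 to 0.59) and the glycogen phosphorylase Pygl 1.85 (0.14 to 1.01). Not every hypoxia gene followed, since Vegfa had 0.20. Subunits of oxidative phosphorylation did not separate MMTR-N, with 26 measured, 0 higher, 4 lower and a median of -0.26 (-0.27 to -0.20 elsewhere).

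Targets of p53 also had a higher median in MMTR-N than in the other lines. Of 21 listed genes 15 were measured, and 10 were higher and 0 lower (11.5% and 9.53% over all genes), with a median of 0.82, against 0.31 in MMTR-F, 0.25 in MMTR KD, 0.05 in MMTR-C and 0.02 in WT. The other lines had 2 to 5 higher members. MMTR-N exceeded every other line in 11 of the 15, against 22.3% of all genes. This list too was chosen with earlier results of these data known, so the count is no independent evidence. The cell cycle inhibitor Cdkn1a (p21) went from 10.18 to 11.73 (1.55), against 0.89 in MMTR KD, 0.52 in MMTR-F, -0.54 in WT and -0.44 in MMTR-C. Mdm2, the ubiquitin ligase of p53, went from 12.13 to 13.21 (1.08), against -0.59 to 0.72, and its other kept probe read 1.51. The cyclin G gene Ccng1 had 1.14 (0.11 to 0.61) and Trp53inp1 1.22 (-0.20 to 1.12, with 0.32 from its other probe). Phlda3, an inhibitor of Akt, had 1.02 (-0.03 to 0.49, with -0.08 from its other probe), and the kinase Plk2 0.82 (-1.0 to 0.30). The death gene Bbc3 (Puma) had 1.00 (0.12 to 0.65), with 0.14 at the lowest of its 3 probes, while Pmaip1 (Noxa) had 0.83 and lay within the range of the others (0.37 to 0.90). Tnfrsf10b (0.11), Eda2r (0.11) and Sesn2 (-0.15) differed by less than 0.5, and Ei24 was level. For Mdm2 the 5 lines lay between 11.81 and 12.13 at d0 and spread to between 11.51 and 13.21 at d3. The terms of Cdkn1a and Phlda3 were 1.44 (SE 0.53, adjusted p = 0.755 by limma) and 0.88 (SE 0.21, adjusted p = 0.684). Of 28 measured genes of G1/S and DNA replication 0 were higher and 3 lower (10.7%) in MMTR-N. Their median was -0.18 (-0.17 to -0.04 elsewhere). In 10 of them (35.7%) MMTR-N was below every other line, against 21.7% of all genes. Of 13 genes of G2/M 0 were higher and 1 lower (7.69%, against 9.53% of all genes), with a median of -0.14 (-0.35 to -0.05 elsewhere). Whether these values are linked to those of the p53 targets was not tested. Of 7 measured cell cycle inhibitors 2 were higher and 1 lower, and the retinoblastoma gene Rb1 had 0.64 in MMTR-N (-0.56 to 0.25 elsewhere).

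**Figure D4:**
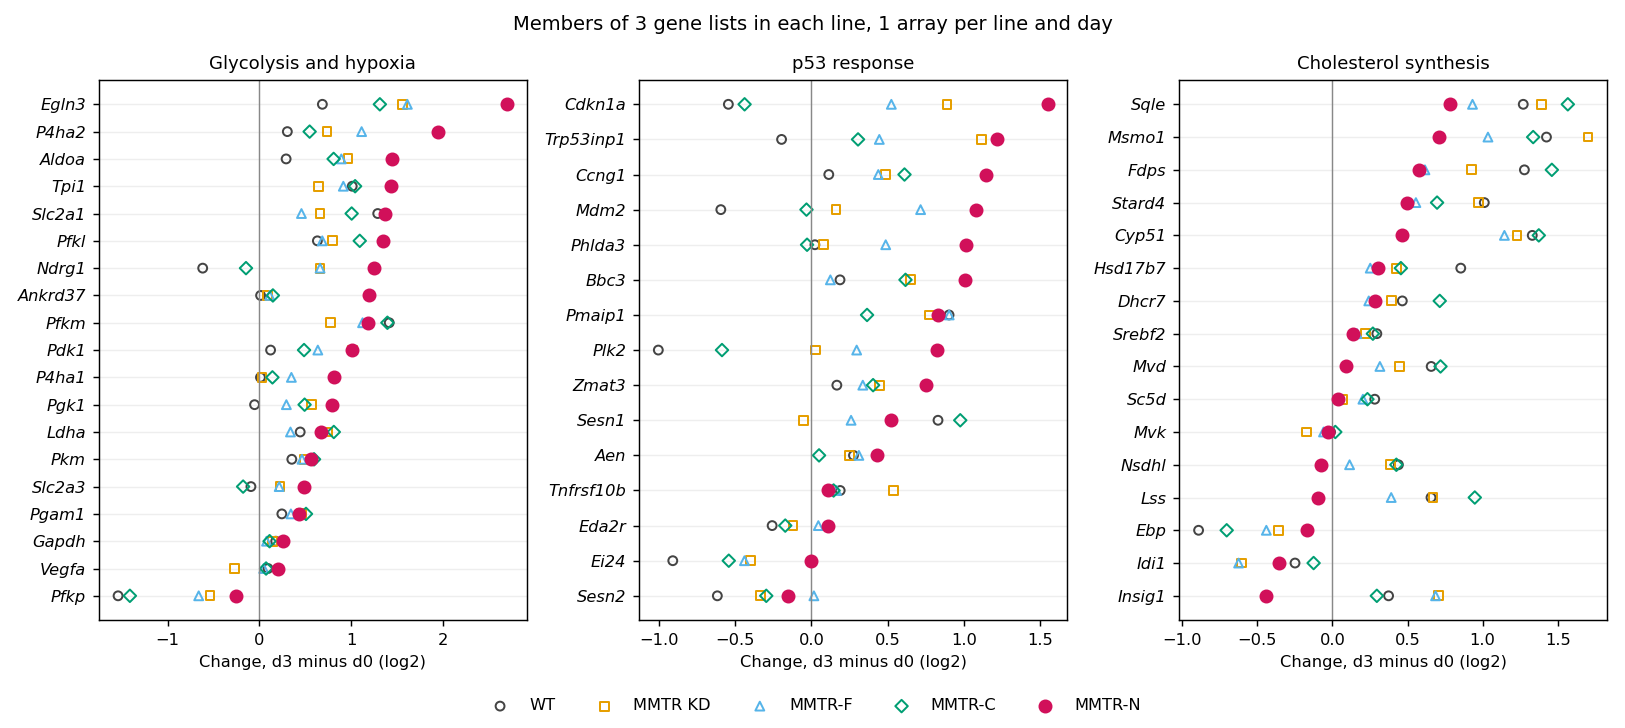
Change between d0 and d3 (log2, x axis) of each measured member of 3 lists, with MMTR-N as filled circles and the other 4 lines as open symbols, 1 array per line and day. MMTR-N lies furthest right in 14 of 19 glycolysis and hypoxia genes and 11 of 15 p53 genes, and furthest left in 11 of 16 cholesterol genes.

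In the amino acid and ER stress response, a few genes were lower at d3 in MMTR-N from a d0 level above that of the other lines. Of 22 listed 21 were measured, with 10 lower (47.6%), 3 higher (14.3%), 8 neither and a median of -0.40. Over all genes 9.53% were lower and 11.5% higher. The other lines had 4 to 8 lower members, the most in MMTR KD, and medians of -0.33 to -0.06. Chac1, which degrades glutathione and is induced by Atf4, read 13.46 at d0 in MMTR-N, against 11.18 in MMTR KD, 10.56 in MMTR-F, 10.22 in WT and 9.45 in MMTR-C. At d3 it read 10.94, against 9.74 to 10.55. The MMTR-N difference of -2.53 thus came with a d0 level 3.11 above the mean of the other lines. Trib3, a pseudokinase and Atf4 target, read 11.49 at d0 (9.38 to 10.26 elsewhere) and 10.05 at d3 (9.61 to 9.76), a difference of -1.45. Herpud1, of ER-associated degradation, read 12.36 at d0 (10.47 to 11.13) and 11.69 at d3 (10.86 to 11.65), so its difference of -0.66 ran against that of all other lines (0.18 to 0.99). In these 3 genes the MMTR-N values were above those of the other lines on both days. Atf4 itself read 13.06 at d0, also the highest of the 5 lines (12.31 to 12.83), and had -0.62. The promoters of Chac1 and Trib3 are shown because Atf4 binds, with a C/EBP partner, sites of the form TGATGNAA. They come from the same RefSeq windows, with that motif on either strand in capitals.

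Chac1, chr2:119350992-119351291, plus strand: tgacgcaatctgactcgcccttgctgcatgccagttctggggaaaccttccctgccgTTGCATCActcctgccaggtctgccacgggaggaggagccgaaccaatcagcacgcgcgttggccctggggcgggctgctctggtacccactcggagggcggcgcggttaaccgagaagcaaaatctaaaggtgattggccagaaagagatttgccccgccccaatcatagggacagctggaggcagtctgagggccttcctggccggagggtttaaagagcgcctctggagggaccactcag
Trib3, chr2:152344011-152344310, minus strand: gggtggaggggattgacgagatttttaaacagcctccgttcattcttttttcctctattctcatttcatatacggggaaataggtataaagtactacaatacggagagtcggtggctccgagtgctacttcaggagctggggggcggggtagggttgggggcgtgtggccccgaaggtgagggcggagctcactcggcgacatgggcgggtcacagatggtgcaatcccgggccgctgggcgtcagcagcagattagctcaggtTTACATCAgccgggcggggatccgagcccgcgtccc

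Chac1 held 1 match, at position -193 from the start, and Trib3 held 1 within the transcribed bases, at position 14. Of 19 measured members with a window 6 (31.6%) held a match, against 4.51% of all 27025 genes and 3.97% of all windows. The remaining members did not move together. The asparagine synthetase Asns had -0.78, inside the range of the others (-1.11 to -0.58), and Mthfd2, of mitochondrial folate metabolism, -0.63. The transporter Slc7a3 had -0.57, where the others gave -0.25 to 0.51, and the glycine transporter Slc6a9, from the list of solute carriers, -0.75 (-0.15 to 0.52). Ddit4, Vldlr and Cebpb were higher at d3, by 3.15, 0.89 and 0.61, and Ddit3 (Chop) had 0.23 and the chaperone gene Hspa5 -0.34. The terms for Chac1, Trib3 and Herpud1 were -2.39 (SE 0.53), -1.22 (SE 0.26) and -1.19 (SE 0.28), each with an adjusted p of 0.684 by limma. Of 20 measured chaperones 6 were lower and 1 higher, with a median of -0.28 (-0.21 to -0.15 elsewhere).

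Fewer genes of cholesterol synthesis were higher at d3 in MMTR-N than in the other lines, which had 6 to 8. Of 22 listed genes 16 were measured, with 3 higher and 0 lower in MMTR-N and a median of 0.11, against 0.58 in MMTR-C, 0.56 in WT, 0.44 in MMTR KD and 0.28 in MMTR-F. In 11 of the 16 MMTR-N was below every other line, where 21.7% of all genes were. As with the other lists, this one was chosen with earlier results known, and the count is no independent evidence. Of the 16, 13 rose and 2 fell over the other 4 lines in the limma test. The demethylase Cyp51 went from 10.49 to 10.96 in MMTR-N (0.47), against 1.14 to 1.37. Insig1, which holds the SREBP factors in the ER when sterols are plentiful, went from 10.86 to 10.42 (-0.44), against 0.30 to 0.71, with 0.10 at the highest of its 3 probes. Lanosterol synthase Lss had -0.10 (0.39 to 0.95), Msmo1 0.71 (1.04 to 1.70) and squalene epoxidase Sqle 0.78 (0.93 to 1.57). Ebp and Idi1 were exceptions, with -0.17 (-0.89 to -0.36 elsewhere) and -0.36 (-0.62 to -0.12). Scd2, a fatty acid desaturase under the same SREBP control, was in the term's lowest 10 genes, with -0.12 in MMTR-N and 0.75 to 1.19 elsewhere. Scd1 and the elongase Elovl6, named after their values were seen and so no independent evidence, had -0.05 (0.45 to 1.18) and -0.19 (0.35 to 0.74). The terms of Cyp51, Insig1 and Scd2 were -0.80 (SE 0.14), -0.96 (SE 0.20) and -1.07 (SE 0.18), all at an adjusted p of 0.684 by limma.

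Interferon-induced genes were split. Of 12 measured genes of 22 listed, 5 were higher (41.7%) and 1 lower (8.33%) in MMTR-N, against 11.5% and 9.53% of all genes. Their median was 0.36 (0.06 to 0.11 elsewhere). Oasl2, an antiviral protein gene, went from 8.44 to 10.13 (1.69), against 0.01 to 0.85, and Irf1 was the largest member. The GTPase genes Gbp2 and Gbp2b, which are close copies whose probes may read both, were not detected at d0 and read 10.42 and 10.24 at d3, at least 4.70-fold and 4.17-fold higher. The other lines gave -0.85 to 0.78 and -0.63 to 0.62. MMTR KD had been at 10.18 and 9.88 for these genes at d0. Membrane proteins of the Ifitm family were nearly level in MMTR-N, with -0.07 for Ifitm1 and -0.22 for Ifitm3, against -1.82 to -0.25 and -1.42 to -0.09.

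Tfap2c, a factor of trophectoderm and germ cells that also acts in naive mESCs, went from 11.19 to 12.33 in MMTR-N (1.14), with values between 0.23 and 1.16 over its 3 probes. It was -2.31 in MMTR-C, -1.75 in WT, -0.53 in MMTR KD and 0.08 in MMTR-F. The keratin genes Krt8 and Krt18 were 1.64 and 1.02 higher at d3, and for Krt8 the other lines gave 0.54 to 1.03. The annexin gene Anxa2 went from 11.44 to 13.76 (2.32), against 1.79 in MMTR-F and -1.16 to 0.59 in the others. The tropomyosin gene Tpm1 had 1.37 (0.01 to 0.79). At d3 the MMTR-N levels of Krt8 (10.97) and Tpm1 (12.01) lay inside the other lines' range, with MMTR KD at 11.16 and 12.07. Gata2 went the other way (-1.15, with -0.63 to 0.01 elsewhere). Of 16 trophectoderm genes 7 were measured, 4 higher (57.1%) and 1 lower (14.3%), against 11.5% and 9.53% of all genes. Their median was 1.02 (-0.04 to 0.29 elsewhere), and the defining factors Cdx2 and Elf5 did not pass the filter. Of 24 measured annexin, S100, keratin and thymosin genes 7 were higher (29.2%) and 6 lower (25%).

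The list of the Tip60-p400 complex, to which MMTR/Dmap1 belongs, held its subunits and the histone variant gene H2az1. All 18 measured of 19 listed lay between -0.79 and 0.25 in MMTR-N, with a median of -0.17 (-0.21 to -0.0023 elsewhere). By 0.5 or more 4 were lower (22.2%, against 9.53% of all genes) and 0 higher, while the other lines had 0 to 3 lower members. In 7 of the 18 (38.9%) MMTR-N was below every other line, against 21.7% of all genes. The lower ones were Actl6a (-0.79), the histone variant gene H2az1 (-0.62), Brd8 (-0.61) and Trrap (-0.57). H2az1 and Trrap lay inside the other lines' range, and Actl6a was close to it (lowest -0.74). Brd8 lay below it (-0.36 to -0.20). The other Actl6a probe read -0.13, and the probe of Brd8 nearest 0 read -0.25. The catalytic subunit Kat5 (Tip60) had 0.01 and Ep400 -0.35. Of 10 measured PRC2 genes 2 were higher and 2 lower (20% each, against 11.5% and 9.53% of all genes). Eed and Epop both had -1.48, Rbbp7 had 1.17 (0.09 to 0.69 elsewhere), and Ezh2 and Suz12 had -0.15 and 0.36. Of 18 PRC1 genes 4 were higher (22.2%) and 1 lower (5.56%). Pcgf5, which directs H2A ubiquitination in a variant complex, went from 10.06 to 11.71 (1.65), against 0.12 to 1.01. Kdm2b, which recruits another variant complex to CpG islands, went from 10.76 to 10.32 (-0.44), against 0.34 to 0.81, and its 4 probes ranged from -0.60 to -0.34. Its term was -1.0 (SE 0.18, adjusted p = 0.684 by limma). Among 10 genes of DNA methylation, Dnmt3b (1.57) and Mbd2 (1.05) were higher and Tet1 (-1.58) and Dnmt3l (-0.72) lower. Dnmt1 had -0.36.

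Markers of later lineages were sparse. The counts here stand beside shares over all genes of 11.5% higher and 9.53% lower. Of 25 neuroectoderm genes 13 were measured, with 5 higher, among them Kif1a, Sox11 (2.03), Sox4 (0.95) and Dpysl2 (0.83), and 4 lower, with a median of 0.15. Of 21 endoderm genes 13 were measured, 2 higher and 3 lower, among them Fst (1.41) and Lamc1 (-1.29). Of 26 germline genes 13 were measured, with Rhox5 (-0.91) as the 1 that differed by 0.5, and of 25 imprinted genes 14, with 3 higher, such as Ndn (1.04), and 3 lower, such as Phlda2 (-1.07). No 2-cell-like gene of 11 passed the filter. Among adhesion genes 7 of 21 were higher, such as the splicing regulator Esrp1 (2.33) and Cldn4 (1.00), and 3 lower, with Cdh1 (-0.03) level. The lists of ribosomal proteins (29 measured, median 0.13), proteasome (27, median -0.16), histones (45, median 0.20) and Myc and ribosome biogenesis (16, median -0.04) differed little between the 2 arrays. Of 21 lysosomal genes 8 were higher and 3 lower, of 26 matrix genes 3 and 8, of 20 guidance genes 8 and 2, and of 22 solute carriers 3 and 7. Of 11 housekeeping genes 2 were higher, Pgk1 (0.79) and B2m (0.51), and 0 lower. Of 24 measured genes that the study itself named, a list chosen on these samples and so no independent evidence, 10 were higher and 9 lower.

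**Figure D5:**
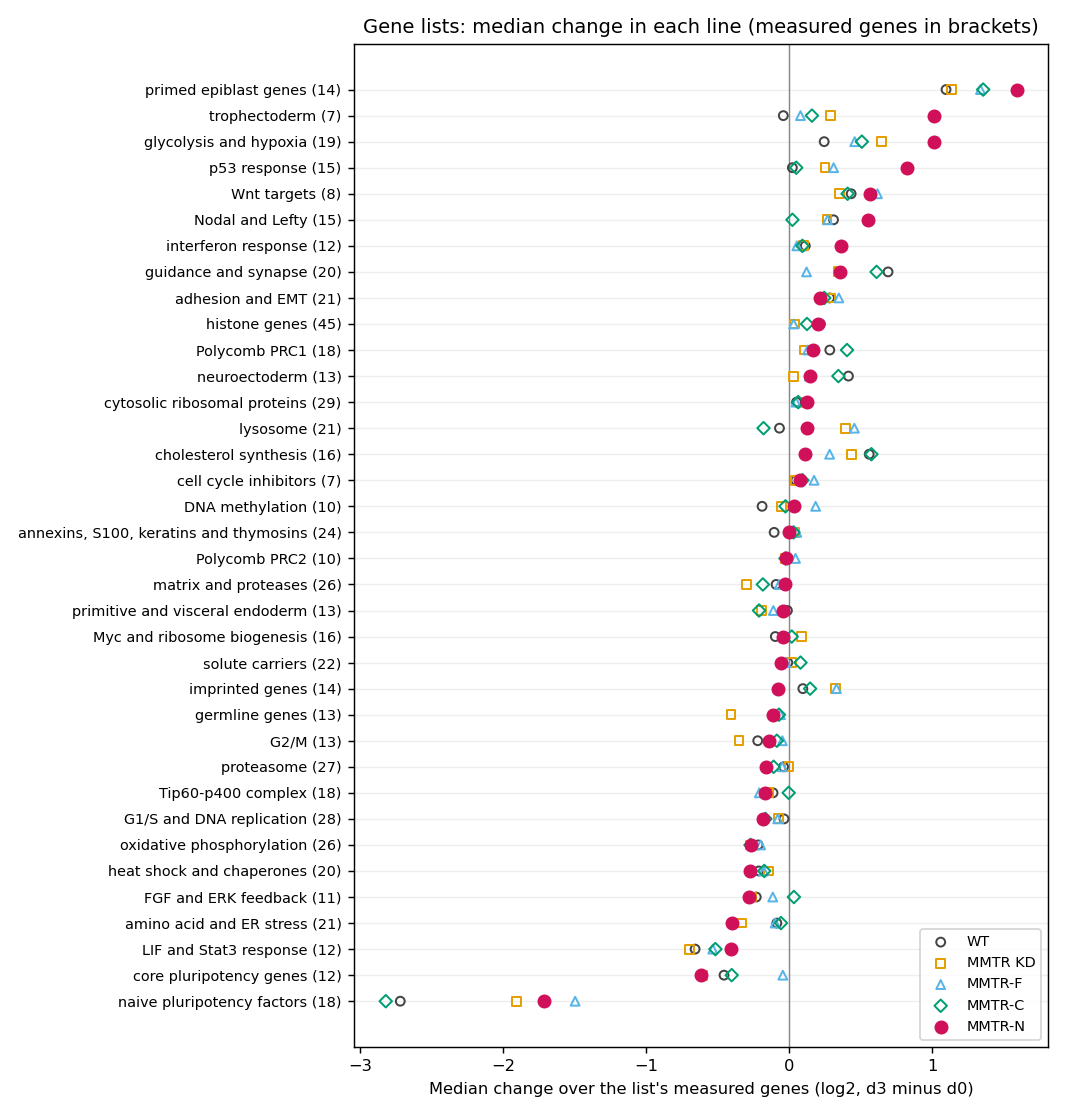
Median change between d0 and d3 (log2, x axis) over the measured genes of each list (number in brackets) in MMTR-N, filled circles, and in the other 4 lines, open symbols. Among the lists with MMTR-N furthest right are primed epiblast (1.59), trophectoderm (1.02), glycolysis and hypoxia (1.01), p53 response (0.82) and Nodal and Lefty (0.56). Among those with MMTR-N furthest left are core pluripotency (-0.61, with MMTR KD at -0.60), amino acid and ER stress (-0.40) and cholesterol synthesis (0.11). For primed epiblast, the gene-by-gene change in MMTR-N minus the mean of the other lines has a median of -0.08.

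The term's highest and lowest 10 genes by p also held genes of no list. Among the highest, Espn had 2.57 in MMTR-N and 0.63 to 1.18 elsewhere, Psors1c2 2.10 (0.20 to 0.90), the growth factor binding protein Igfbp3 1.28 (-0.22 to 0.32), the proteoglycan Sdc4 0.76 (-0.46 to -0.09), the antiproliferative gene Btg4 0.75 (-0.09 to 0.02) and the transferrin receptor Tfrc 0.70 (-0.21 to 0.05). Among the lowest, Soga3 had -1.72 (-0.94 to -0.34), Aven, an inhibitor of apoptosis, -0.92 (-0.28 to 0.06), the DNA repair endonuclease Apex1 -0.87 (-0.14 to 0.13), the RNA-binding protein Taf15 -0.48 (0.39 to 0.66), Ccnyl1 -0.13 (0.64 to 0.88), the phosphatase Cdc14a -0.08 (0.57 to 0.77) and Ramp2 1.03 (1.63 to 1.85). Each lay outside the range of the other 4 lines, which a choice by low p favours, so this adds no evidence. Each had an adjusted p of 0.684 by limma, so none passed.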

How the data were processed

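RNA of the 5 lines at d0 and d3 was hybridised to Illumina mouse WG-6 bead arrays with 45281 probes. The authors deposited non-normalized bead signal intensities and detection p-values per array, exported with BeadStudio 3.2 per the labels (the methods name GenomeStudio), and a table of log2 values for 16652 probes. The series text speaks of RMA background correction, but the deposited log2 values differed by at most 0.044 from log2 intensities that were quantile normalized without it. Here the intensities were log2 transformed and quantile normalized over the kept probes in R 4.3.3 with limma 3.58.1. Probes were named from the platform annotation, with 14281 kept probes on 1 symbol, 7 on several and 3487 on none, and the brightest probe stood for a gene.

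The difference of d3 minus d0 in MMTR-N has no test, and 0.5 on the log2 scale was used as a threshold of size. The day over the other 4 lines, and the MMTR-N by day term over all 10 arrays, were fitted with limma (lmFit and eBayes, 3 residual degrees of freedom, Benjamini-Hochberg adjustment). Whether the lines came from separate cultures is not given, so p-values measure the spread between these samples. For a gene detected on 1 MMTR-N array, "at least" folds set the dim array to the lowest signal detected there, or to the gene's own where that was higher. The precision is limited by the number of arrays. The fits were tested on simulated data.

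Named were Dmap1, the 15 largest differences each way among genes detected on both arrays, the 5 largest bounds each way, up to 5 members of each list with the largest differences, the 10 genes each way with the lowest p of the term, and list members 0.5 or more outside the other lines' range. Some genes picked by these rules are left out of the text. Other list members were named after their values were seen. The members and lists were chosen with earlier results of these data known. Promoters were read from RefSeq tables with Python 3.11.15 and pandas 2.3.3. Alternatives covered background correction, normalization, its order, the detection filter, the deposited values, the threshold, the probe taken for a gene, the line term, a trend in the prior variances, and leaving out each other line.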

Additional observations from a re-analysis of the deposited data

Results flagged for a closer look

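In 9 genes with a difference of 0.5 or more in MMTR-N, the difference had the opposite sign in each other line. Armcx1 (-0.57), Herpud1 (-0.66), Mfsd1 (-0.55), Pa2g4 (-0.57) and Tmem126a (-0.56) were negative in MMTR-N and positive in the 4 other lines, which ranged from 0.09 to 0.65, 0.18 to 0.99, 0.17 to 0.64, 0.05 to 0.27 and 0.0041 to 0.13. Hspa2 (0.57), Kit (0.66), Sdc4 (0.76) and Smtnl2 (0.65) were positive in MMTR-N and negative in the others, which ranged from -0.29 to -0.14, -1.35 to -0.03, -0.46 to -0.09 and -0.41 to -0.01. Several of the opposite values were close to 0, such as those of Tmem126a and Pa2g4, and are no more than a sign. By the MMTR-N by day term of limma none passed, with adjusted p between 0.684 and 0.737.

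Among probes that did not pass the filter, 1 without a gene name, ILMN_2546887, was detected on both MMTR-N arrays and on no other array, with a raw signal of 416 at d3 and 294 at d0. Its highest raw signals in the other lines were 349 at d3 and 237 at d0. The same count was 1 in WT, 6 in MMTR KD and 0 in MMTR-F and MMTR-C.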

How the results depend on the processing

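Of the genes picked by rule, 185 differed by 0.5 or more in MMTR-N. Each kept its direction under the 6 alternatives run for genes (normexp, median scaling, no normalization, normalization before the filter, the deposited values and the median over probes). Of these 185 genes, 156 kept a difference of 0.5 in all 6. Of the 41 lists with 2 or more measured genes, 31 kept the sign of their median under all 6, among them the 8 with a median of 0.5 or more in size. The other 10, the largest of them 0.18 in size, turned sign under at least 1, such as neuroectoderm (0.15 to -0.15 under median scaling), ribosomal proteins (0.13 to -0.06), lysosome (0.13 to -0.09) and housekeeping genes (0.18 to -0.09). The counts of probes moved more. Against 1588 higher and 1503 lower, normexp background correction gave 3700 and 3739, median scaling 1985 and 2436, and no normalization 3589 and 1575, with a median of all differences of 0.17. The share of higher among the called probes was 51.4%, 44.9% under median scaling and 69.5% without normalization. A threshold of 1 gave 398 and 310, and genes in place of probes gave 1074 and 893. A higher threshold and a smaller number of features lower these last counts by construction, and for the other settings the cause was not tested. For the day over the other 4 lines, no normalization gave 11164 higher and 1198 lower probes. Leaving out each line gave 2590 to 3250 higher and 2648 to 3276 lower, and the fit without the line as a block 2805 and 2897. No paired analysis was possible for MMTR-N itself because it has 1 array per day. The MMTR-N by day term called 0 probes by limma under every alternative run, with 879 to 1664 at an unadjusted p under 0.05 under the changes of normalization, filter or source. With 1 array per line and day, differences near 0.5 have no replicate error to be read against.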
